A study of Mus musculus with 8 samples.

Results

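The interferon-stimulated genes described here are 44 genes that cells switch on in response to interferon, and 40 of them were measured by a probe set of their own among the 18820 genes of the array. The members were given as a list of names, with no threshold on a measured value, but they were chosen with earlier results of these data known. *Dtx3l* and *Parp9*, which lie head to head in the genome, shared their probe sets with each other, and *Igtp* shared its probe set with *Irgm2*, so that these 3 members could not be read apart from a neighbour. *Ifi44* was not analysed here. Each of the 40 measured members rested on 1 probe set.

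RNA came from the epididymal white adipose tissue, the fat pad beside the epididymis, of male mice on a C57BL/6 background. Heterozygous *Sucnr1*+/- animals had been intercrossed, and 4 wild-type (WT) offspring were compared with 4 *Sucnr1*-/- littermate offspring, in which an IRES/lacZ/neo cassette had taken the place of most of the receptor-coding exon of *Sucnr1* in every cell of the body. The mice of both genotypes entered the experiment at 8 to 10 weeks of age, received a semi-synthetic low-fat diet (LFD) for 16 weeks under specified pathogen-free housing, and were killed at 24 to 26 weeks. *Sucnr1* encodes the cell-surface receptor for succinate, and the comparison asks which genes of the fat pad differ in level when that receptor is missing.

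Interferons are secreted proteins that signal through receptors at the cell surface. Type I interferons such as interferon-β and interferon-α activate the kinases JAK1 and TYK2, and a complex that holds STAT2 and IRF9 then binds the interferon-stimulated response element (ISRE) in the promoters of target genes. Type II interferon, interferon-γ, acts mainly through the gamma-activated sequence (GAS). The genes induced in this way encode sensors of foreign nucleic acid, the factors of the pathway itself, proteins that block viral replication, GTPases directed at intracellular microbes and the machinery that supplies peptides to MHC class I. In adipose tissue, macrophages, other immune cells, stromal cells and adipocytes can all respond to interferon.

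Values are log2 intensities, so that a difference of 1 is a doubling, and each level is compared between mice for the same gene only. The 8 arrays had medians between 6.28 and 6.36 over all probe sets, and any pair of arrays correlated at 0.981 to 0.993. *Sucnr1* itself read 8.68, 8.97, 9.38 and 9.78 in the WT mice and 6.02, 6.05, 5.41 and 7.11 in the *Sucnr1*-/- mice, so that every array labelled knockout lay below every WT array. *Sucnr1*-/- mouse 4 had the highest *Sucnr1* signal of its group, and the place of the probes relative to the exchanged exon was not known. *Adipoq*, the adipocyte hormone adiponectin, lay between 13.17 and 13.35 in all 8 mice. For the interferon-stimulated genes 2 mice stood apart: WT mouse 1 had the highest level of the 8 mice for 39 of the 40 members and *Sucnr1*-/- mouse 4 had the lowest for 35. Results are therefore given with and without them.

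The following 4 promoters are shown because they hold the ISRE core, the letters bound by the complex of STAT2 and IRF9, and because they come from different functional groups: *Isg15*, a ubiquitin-like protein, *Oas1a*, an oligoadenylate synthetase, *Ifit1*, an RNA-binding effector, and *Irgm1*, an immunity-related GTPase. Each runs 5′ to 3′ in the direction of the gene from 250 bases before to 50 bases after the transcription start (RefSeq, mouse build GRCm38.p6). The positions are chr4:156200769-156201068, minus strand for *Isg15*; chr5:120907476-120907775, minus strand for *Oas1a*; chr19:34640639-34640938, plus strand for *Ifit1*; and chr11:48871371-48871670, minus strand for *Irgm1*. Capitals mark every base that belongs to a match to GAAANNGAAA on either strand, so that a match on the opposite strand reads TTTCNNTTTC.
Isg15: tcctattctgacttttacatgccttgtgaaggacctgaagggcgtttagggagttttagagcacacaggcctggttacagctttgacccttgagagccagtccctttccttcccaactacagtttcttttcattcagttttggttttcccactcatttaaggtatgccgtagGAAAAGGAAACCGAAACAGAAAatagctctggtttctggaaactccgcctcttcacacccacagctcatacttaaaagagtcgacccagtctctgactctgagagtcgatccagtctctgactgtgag
Oas1a: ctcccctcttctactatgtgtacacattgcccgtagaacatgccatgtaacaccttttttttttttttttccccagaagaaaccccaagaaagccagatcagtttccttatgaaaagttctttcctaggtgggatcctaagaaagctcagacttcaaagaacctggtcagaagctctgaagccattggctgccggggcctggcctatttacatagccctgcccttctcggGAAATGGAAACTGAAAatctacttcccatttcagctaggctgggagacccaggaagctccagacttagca
Ifit1: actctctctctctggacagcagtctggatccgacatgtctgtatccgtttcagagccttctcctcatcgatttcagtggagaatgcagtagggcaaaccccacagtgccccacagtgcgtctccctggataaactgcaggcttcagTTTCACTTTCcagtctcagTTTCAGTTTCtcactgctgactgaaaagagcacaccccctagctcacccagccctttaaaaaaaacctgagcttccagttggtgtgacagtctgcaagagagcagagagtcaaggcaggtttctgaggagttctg
Irgm1: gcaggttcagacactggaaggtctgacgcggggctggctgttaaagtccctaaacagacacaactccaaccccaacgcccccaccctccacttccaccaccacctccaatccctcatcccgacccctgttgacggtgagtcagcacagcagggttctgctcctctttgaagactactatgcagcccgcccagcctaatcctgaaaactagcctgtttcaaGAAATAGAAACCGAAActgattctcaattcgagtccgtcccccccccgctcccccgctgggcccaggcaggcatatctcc

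In the *Isg15* promoter 3 matches overlapped and began at positions −78, −72 and −66 from the start. The *Oas1a* promoter held 2 overlapping matches at −20 and −14, and the *Irgm1* promoter 2 overlapping matches at −30 and −24. In *Ifit1* the 2 matches lay apart, at −104 and −85, both on the opposite strand. Promoters were found for 34 of the 44 members, and 16 of these genes (47.1%) held the ISRE core, against 1079 of 27025 genes (3.99%) in the whole promoter table. The core was present in a promoter of all 5 genes of interferon-induced GTPases in the table, of the sensors *Ifih1* and *Ddx58*, of 6 of 12 antiviral effectors and of none of the 3 genes of peptide supply. It was also present in 1 of 3 transcription factors of the response, 1 of 5 regulators around ISG15, ubiquitin and ADP-ribose, and 1 of 4 other induced genes. The GAS letters TTCNNNGAA, which read the same on both strands and may overlap an ISRE core, occurred in 8 of the 34 genes (23.5%) and in 2582 of all 27025 (9.55%). These matches describe letters in a window and not binding.

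All 40 measured members had a lower mean level in *Sucnr1*-/- than in WT fat, whereas 46.8% of all genes had a lower mean. As the members were chosen with earlier results known, this count describes the list and does not test it. The median difference over the members, *Sucnr1*-/- minus WT, was −0.42 on the log2 scale, against 0.009 over all genes, and with array weights estimated by limma it was −0.23. The smallest difference was that of *Psmb9*, −0.07, and the largest that of *Mx1*, −1.15. No member passed an adjusted p of 0.05 in limma, nor did any of the 18820 genes (0.0%), and the adjusted p of the members ran from 0.712 to 0.888. At an unadjusted limma p of 0.05, 4 members were lower and 0 higher, namely *Dhx58*, *Oas1a*, *Mx1* and *Irf7*, which is 4 of 40 beside 632 genes lower (3.36%) and 652 higher over the whole array. After median centring 3 members were lower, beside 330 genes lower (1.75%) and 1352 higher over the whole array. The count of 4 became 0 without *Sucnr1*-/- mouse 4 (2.35% of all genes), 2 without *Sucnr1*-/- mouse 3 (2.52%), 7 without WT mouse 2 (3.73%) and 11 without WT mouse 4 (3.81%). The methods' t-test placed none of the members under the same unadjusted limit (2.98% of all genes). The RNA was taken from whole tissue, in which fewer cells of a type and less RNA per cell cannot be told apart.

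For 4 members, *Ifih1*, *Ddx58*, *Irf7* and *Mx1*, every *Sucnr1*-/- mouse lay below every WT mouse, a pattern that 1.87% of all genes showed. There were 8 such members without *Sucnr1*-/- mouse 2 (2.62% of all genes) and 9 without WT mouse 4 (3.48% of all genes). Without WT mouse 1, 36 members kept a lower mean and 4 had a higher one (49.4% of all genes were lower), the median difference shrank to −0.16, and 29 of the 40 differences shrank by more than 50%. In that comparison 5 members were under an unadjusted p of 0.05 (2.75% of all genes were lower at that limit): *Dhx58*, *Mx1*, *Oas1a*, *Cmpk2* and *Ifih1*. Without *Sucnr1*-/- mouse 4, 39 members were lower (48.2% of all genes), the median was −0.31 and none was under the unadjusted limit (2.35% of all genes). Without both mice, 28 members were lower and 12 higher (49.4% of all genes were lower), the median was −0.06, and *Dhx58* and *Mx1* stayed under the unadjusted limit (2.47% of all genes).

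**Figure D1:**
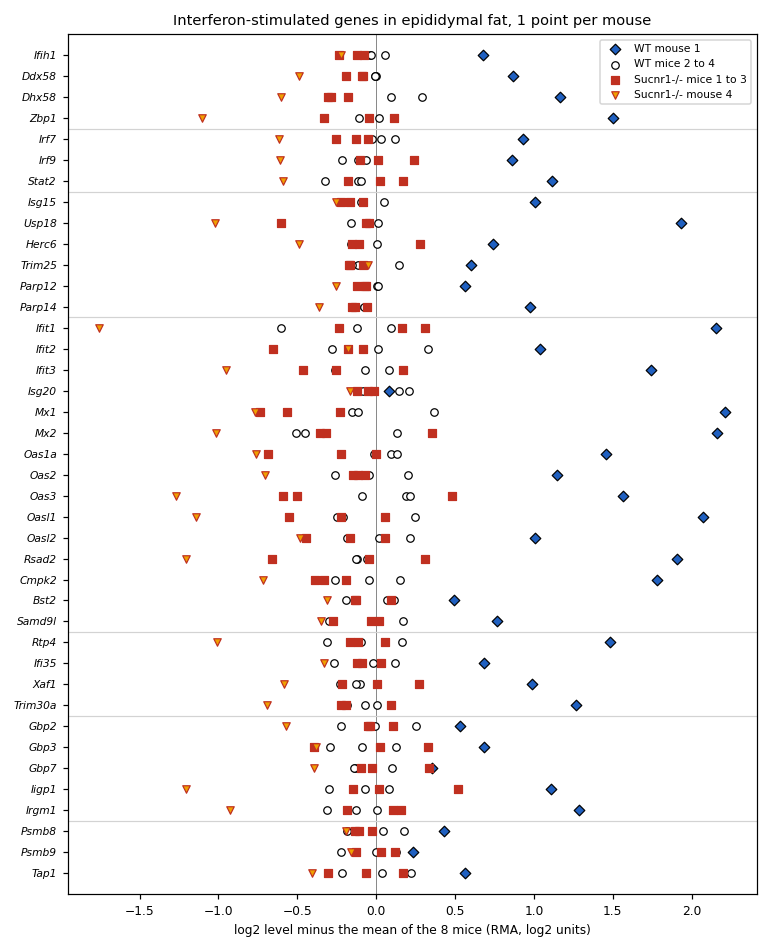
Level of each measured interferon-stimulated gene in each of the 8 mice, as the log2 level minus the mean of the 8 mice for that gene (x axis, log2 units), with 1 point per mouse and grey lines between the functional groups. WT mouse 1 (blue diamonds) is the rightmost point for 39 of the 40 members and *Sucnr1*-/- mouse 4 (orange triangles) the leftmost for 35. WT mice 2 to 4 (open circles) and *Sucnr1*-/- mice 1 to 3 (red squares) intermingle near 0, except in *Ifih1*, *Ddx58*, *Irf7* and *Mx1*, where these WT mice lie above these *Sucnr1*-/- mice.

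The nucleic acid sensors were the group with the most members whose genotypes did not overlap. *Ifih1* encodes MDA5, a sensor of long double-stranded RNA. It read 9.88, 9.15, 9.16 and 9.25 in WT mice 1 to 4 and 8.96, 9.08, 9.12 and 8.97 in *Sucnr1*-/- mice 1 to 4. WT mouse 1 was high, and the highest *Sucnr1*-/- value was still just below the lowest WT value. The difference was −0.33 ± 0.16 (limma estimate ± SE, n = 4 and 4, adjusted p = 0.719), and −0.16 ± 0.07 without WT mouse 1. In *Ddx58*, which encodes the RNA sensor RIG-I, the WT levels were 10.19, 9.32, 9.31 and 9.31 and the *Sucnr1*-/- levels 9.23, 9.13, 9.23 and 8.83. WT mice 2 to 4 were almost identical, and all 4 *Sucnr1*-/- mice lay below them, mouse 4 by the widest gap. Its difference was −0.43 ± 0.20 (adjusted p = 0.719 in limma). An exact permutation test, 2-sided, gave p = 0.0286 for each of *Ifih1* and *Ddx58*, the smallest value that 4 mice against 4 allow. Any gene whose genotypes do not overlap gets this value, so it restates the lack of overlap and adds no further evidence.

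*Dhx58* encodes LGP2, a helicase that modulates the signals of RIG-I and MDA5. Its levels were 8.76, 7.41, 7.88 and 7.69 in WT mice and 7.31, 7.42, 7.29 and 6.99 in *Sucnr1*-/- mice. The groups met at one point only, where WT mouse 2 lay below *Sucnr1*-/- mouse 2. With a difference of −0.69 ± 0.26 (unadjusted p = 0.0273, adjusted p = 0.712 in limma), *Dhx58* had the smallest p of the members, and the difference was −0.41 ± 0.14 without WT mouse 1 and −0.32 without both outlying mice. *Zbp1*, which encodes a sensor of Z-form nucleic acid that can trigger necroptosis, read 8.94, 7.39, 7.33 and 7.45 in WT and 7.55, 7.39, 7.11 and 6.33 in *Sucnr1*-/- mice. Apart from WT mouse 1 and *Sucnr1*-/- mouse 4 the genotypes overlapped, and the difference of −0.68 ± 0.40 became −0.30 ± 0.26 without WT mouse 1.

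Among the transcription factors of the response, *Irf7* differed from *Irf9* and *Stat2* in how the genotypes lay. IRF7 amplifies the production of type I interferon. *Irf7* read 9.35, 8.46, 8.54 and 8.40 in WT mice and 8.30, 8.37, 8.17 and 7.81 in *Sucnr1*-/- mice. All *Sucnr1*-/- mice were below all WT mice, by a narrow margin between *Sucnr1*-/- mouse 2 and WT mouse 4. The exact permutation test, 2-sided, therefore again gave p = 0.0286, the value of any gene without overlap. The difference was −0.53 ± 0.22 (unadjusted p = 0.041, adjusted p = 0.715 in limma) and −0.30 ± 0.13 without WT mouse 1. *Stat2*, which encodes the signalling partner of IRF9, read 9.67, 8.44, 8.23 and 8.45 in WT and 8.72, 8.57, 8.37 and 7.96 in *Sucnr1*-/- mice. *Sucnr1*-/- mice 1 and 2 lay above WT mice 2 to 4, so the sign of its difference, −0.29 ± 0.31 over all mice, turned to 0.04 ± 0.17 without WT mouse 1. *Irf9*, the DNA-binding part of the same complex, went the same way, from −0.23 ± 0.26 to 0.02 ± 0.18.

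The group around ISG15, ubiquitin and ADP-ribose had 6 of its 8 members measured, all with a lower mean and none under an unadjusted p of 0.05. USP18 removes ISG15 from proteins and damps signalling at the type I interferon receptor. *Usp18* read 10.47, 8.56, 8.49 and 8.38 in WT and 8.48, 8.50, 7.94 and 7.52 in *Sucnr1*-/- mice. WT mouse 1 reached 3.99 times the mean of the other WT mice, and WT mice 2 to 4 overlapped with *Sucnr1*-/- mice 1 and 2. The difference of −0.87 ± 0.46 (adjusted p = 0.728 in limma), one of the 4 largest of the set, became −0.37 ± 0.23 without WT mouse 1. *Parp12*, which encodes a mono-ADP-ribosyltransferase, read 10.50, 9.94, 9.95 and 9.87 in WT and 9.82, 9.87, 9.87 and 9.68 in *Sucnr1*-/- mice. Beside WT mouse 1 its levels spread little, and the genotypes overlapped only in that WT mouse 4 lay just below *Sucnr1*-/- mice 2 and 3 (difference −0.26 ± 0.14).

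*Isg15* itself, whose promoter is shown above, read 6.24, 5.14, 4.996 and 5.28 in WT and 5.07, 5.01, 5.15 and 4.98 in *Sucnr1*-/- mice. Only WT mouse 1 stood out, above all other mice, and the difference of −0.36 ± 0.24 became −0.09 ± 0.09 without it. The differences of the remaining 3 genes, *Parp14*, *Herc6* and *Trim25*, were −0.35, −0.24 and −0.24. *Parp14* encodes another ADP-ribosyltransferase, *Herc6* the ligase that attaches ISG15 in mice, and *Trim25* a ubiquitin ligase that acts on RIG-I. In *Trim25*, *Sucnr1*-/- mouse 4 had the highest level of its group, one of the 4 members in which it was not the lowest *Sucnr1*-/- mouse.

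The 15 antiviral effectors held the largest differences, with a median of −0.75 that became −0.29 without WT mouse 1 and −0.15 without both outlying mice. *Mx1* encodes a dynamin-like GTPase that blocks viral replication, although C57BL/6 and many other laboratory strains are known to carry a defective allele. It read 8.48, 6.11, 6.63 and 6.14 in WT and 6.03, 5.69, 5.52 and 5.49 in *Sucnr1*-/- mice. WT mouse 1 reached 4.54 times the mean of the other WT mice, yet the other 3 WT mice were also above all 4 *Sucnr1*-/- mice. The exact permutation test, 2-sided, therefore gave p = 0.0286, the value of any gene without overlap. The difference of −1.15 ± 0.48 (unadjusted p = 0.0403, adjusted p = 0.715 in limma) was −0.61 ± 0.17 without WT mouse 1 and −0.54 without both mice. *Mx2*, the neighbouring paralogue, read 7.77, 5.10, 5.15 and 5.74 in WT and 5.25, 5.96, 5.29 and 4.59 in *Sucnr1*-/- mice. Here *Sucnr1*-/- mouse 2 lay above WT mice 2 to 4, and the difference of −0.67 ± 0.57 was −0.06 ± 0.30 without WT mouse 1, which again stood above its group mates. *Mx2* and *Isg15* were among the 40% of genes of lowest mean level, so no fold is given for either.

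The oligoadenylate synthetases make the second messenger that activates RNase L, which cleaves viral and cellular RNA. *Oas1a* read 8.44, 7.08, 7.12 and 6.97 in WT and 6.76, 6.98, 6.30 and 6.22 in *Sucnr1*-/- mice. *Sucnr1*-/- mouse 2 lay just above WT mouse 4, and the other *Sucnr1*-/- mice were below all WT mice. The difference was −0.84 ± 0.33 (unadjusted p = 0.0336, adjusted p = 0.712 in limma), −0.49 ± 0.18 without WT mouse 1 and −0.37 without both mice. *Oas3* read 7.91, 6.53, 6.55 and 6.25 in WT and 6.82, 5.84, 5.75 and 5.08 in *Sucnr1*-/- mice. *Sucnr1*-/- mouse 1 was above WT mice 2 to 4 and the other *Sucnr1*-/- mice were below them, giving a difference of −0.94 ± 0.43 and of −0.57 ± 0.35 without WT mouse 1. *Oasl1*, which encodes an OAS-like protein without synthetase activity, read 10.03, 8.20, 7.74 and 7.71 in WT and 8.01, 7.74, 7.40 and 6.82 in *Sucnr1*-/- mice. WT mouse 1 reached 4.42 times the mean of the other WT mice, and the genotypes overlapped among the rest. *Oas2* and *Oasl2* differed by −0.52 and −0.52.

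The IFIT proteins bind viral RNA that lacks the marks of host RNA. *Ifit1* read 11.40, 9.12, 8.64 and 9.33 in WT and 9.40, 9.55, 9.01 and 7.48 in *Sucnr1*-/- mice. Its spread was among the widest of the set in both genotypes, WT mouse 1 at 5.16 times the mean of its group mates and *Sucnr1*-/- mouse 4 −1.84 on the log2 scale from its own, so that the difference was −0.76 ± 0.64 over all mice, −0.17 ± 0.47 without WT mouse 1 and 0.29 without both. *Ifit3* differed by −0.75 ± 0.43. *Ifit2* differed by −0.55 ± 0.26, and its lowest mouse was *Sucnr1*-/- mouse 1, at 7.04. *Rsad2* encodes viperin, which makes a chain-terminating nucleotide, and the adjacent *Cmpk2* encodes a mitochondrial nucleotide kinase. Their differences were −0.80 ± 0.51 and −0.81 ± 0.40, and without WT mouse 1 they were −0.30 ± 0.32 and −0.36 ± 0.14.

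*Isg20*, which encodes an RNA exonuclease, was the 1 member in which WT mouse 1 was not the highest. It read 11.21, 11.28, 11.34 and 11.04 in WT and 11.12, 11.08, 11.01 and 10.96 in *Sucnr1*-/- mice. WT mouse 4 lay below *Sucnr1*-/- mice 1 and 2, and the other WT mice lay above all *Sucnr1*-/- mice. Its difference of −0.18 ± 0.08 (adjusted p = 0.719 in limma) was small but hardly moved when WT mouse 1 was left out (−0.18 ± 0.09). *Bst2*, which encodes tetherin, a membrane protein that holds budding virions at the cell surface, and *Samd9l* differed by −0.24 ± 0.15 and −0.32 ± 0.21, and by −0.12 ± 0.11 and −0.12 ± 0.14 without WT mouse 1.

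**Figure D2:**
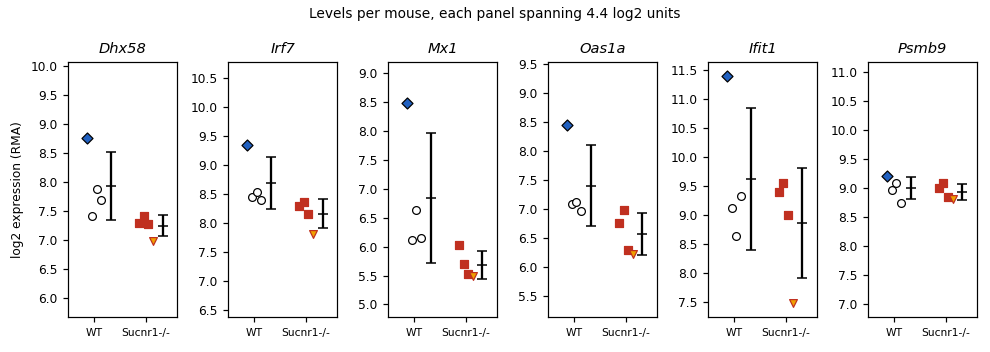
Level of 6 members in every mouse (y axis, log2 RMA expression; each panel spans 4.4 log2 units), with WT mouse 1 as a blue diamond, the other WT mice as open circles, *Sucnr1*-/- mice 1 to 3 as red squares and *Sucnr1*-/- mouse 4 as an orange triangle; the bars beside the points give the group mean ± SD (n = 4). In *Mx1* and *Irf7* all WT points lie above all *Sucnr1*-/- points, in *Dhx58* and *Oas1a* nearly all do, in *Ifit1* the outlying mice set the spread, and in *Psmb9* the genotypes overlap (difference −0.07).

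The 4 further induced genes showed the same arrangement of mice. *Trim30a*, of the tripartite motif family, read 11.53, 10.27, 10.19 and 10.08 in WT and 10.36, 10.07, 10.04 and 9.57 in *Sucnr1*-/- mice. *Rtp4*, which encodes a chaperone of membrane receptors, read 10.31, 8.99, 8.72 and 8.51 in WT and 8.88, 8.71, 8.65 and 7.81 in *Sucnr1*-/- mice. In both genes WT mouse 1 was the highest and *Sucnr1*-/- mouse 4 the lowest, and the other 6 mice overlapped. The difference of *Trim30a* was −0.51 ± 0.32 over all mice and −0.02 without the outlying pair, and that of *Rtp4* −0.62 ± 0.39 and 0.004. *Xaf1*, an antagonist of the apoptosis inhibitor XIAP, and *Ifi35* differed by −0.26 ± 0.29 and −0.25 ± 0.19, and by 0.18 and −0.002 without the outlying pair.

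The interferon-induced GTPases coat vacuoles that hold bacteria and parasites, and many of them respond strongly to interferon-γ. All 5 that were measured had a lower mean, none was under an unadjusted p of 0.05, and without both outlying mice 4 of the 5 had a higher mean in *Sucnr1*-/- fat. *Gbp2*, a guanylate-binding protein, read 11.20, 10.66, 10.91 and 10.44 in WT and 10.62, 10.77, 10.61 and 10.09 in *Sucnr1*-/- mice. *Irgm1*, which regulates the other immunity-related GTPases, read 10.24, 8.82, 8.95 and 8.64 in WT and 9.11, 9.06, 8.76 and 8.02 in *Sucnr1*-/- mice. *Sucnr1*-/- mice 1 and 2 lay above WT mice 2 to 4 in *Irgm1*, and in *Gbp2* they lay among them. The differences were −0.28 ± 0.19 and −0.42 ± 0.37 over all mice, and −0.15 ± 0.18 and −0.07 ± 0.25 without WT mouse 1. In *Iigp1*, an effector of this family, *Sucnr1*-/- mouse 4 read 7.44 and the other *Sucnr1*-/- mice 8.49 to 9.16. *Gbp3* and *Gbp7* differed by −0.21 ± 0.23 and −0.09 ± 0.17.

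Among the functional groups, the genes of peptide supply for MHC class I showed the smallest excess of WT mouse 1. *Psmb8* and *Psmb9* encode catalytic subunits of the immunoproteasome, and *Tap1* one chain of the transporter that carries peptides into the endoplasmic reticulum. *Psmb8* read 9.07, 8.69, 8.82 and 8.46 in WT and 8.62, 8.51, 8.53 and 8.45 in *Sucnr1*-/- mice. WT mice 1 to 3 lay above all *Sucnr1*-/- mice and WT mouse 4 among them, with a difference of −0.23 ± 0.12 (adjusted p = 0.727 in limma). *Tap1* read 9.18, 8.65, 8.84 and 8.40 in WT and 8.56, 8.79, 8.32 and 8.21 in *Sucnr1*-/- mice. The genotypes overlapped in *Tap1*, with a difference of −0.30 ± 0.18. *Psmb9* differed by −0.07 ± 0.11 and by −0.001 ± 0.107 without WT mouse 1. The excess of WT mouse 1 over the mean of the other WT mice had a median of 0.42 log2 units in this group, against 1.46 in the antiviral effectors and 1.08 over all 40 members; the difference between groups of members was not tested.

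**Figure D3:**
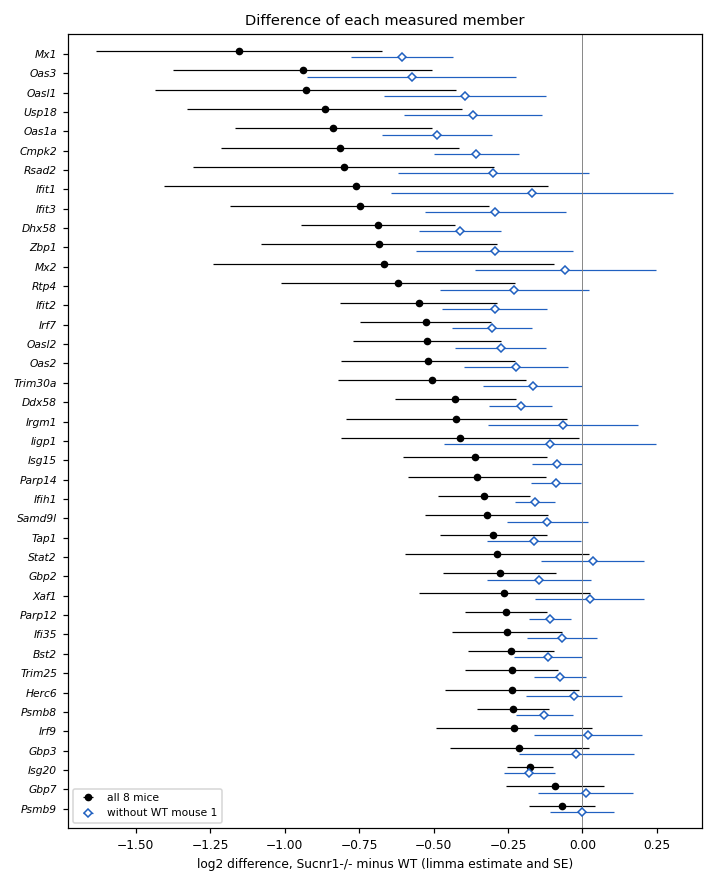
Log2 difference, *Sucnr1*-/- minus WT, of each measured member (x axis) with the SE of the limma estimate as bars, over all 8 mice (black) and without WT mouse 1 (blue diamonds). The black points run from −1.15 for *Mx1* to −0.07 for *Psmb9*, and leaving out WT mouse 1 brings the median from −0.42 to −0.16 and 4 members above 0.

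The mean level over the 40 members was 9.67 in WT mouse 1 and 8.46 to 8.56 in the other WT mice, 8.35 to 8.57 in *Sucnr1*-/- mice 1 to 3 and 7.94 in *Sucnr1*-/- mouse 4. WT mice 2 to 4 and *Sucnr1*-/- mice 1 to 3 thus covered overlapping ranges. WT mouse 1 was the highest of the 8 mice for 97.5% of the members and for 18.2% of all genes. *Sucnr1*-/- mouse 4 was the lowest for 87.5% of the members and for 16.2% of all genes. WT mouse 1 lay more than 1 log2 unit above the mean of the other WT mice in 22 members (55.0%) and in 269 of all genes (1.43%). The SD among the WT mice had a median of 0.57 over the members, or 0.17 without WT mouse 1, against 0.13 and 0.11 over all genes. Among the *Sucnr1*-/- mice it was 0.30, against 0.12.

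Once WT mouse 1 was set aside, the highest of the remaining 7 mice was WT mouse 3 for 15 members, *Sucnr1*-/- mouse 2 for 10, WT mouse 2 for 7, *Sucnr1*-/- mouse 1 for 6 and WT mouse 4 for 2. *Sucnr1*-/- mice 3 and 4 were the highest for none. The members with an ISRE core in a promoter of the table, 15 of those measured, had a median difference of −0.42 and a median excess of WT mouse 1 of 1.29. For the 16 without a match the medians were −0.26 and 0.82, and this difference was not tested.

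The interferons themselves did not share this pattern on the array. Of the 21 ligand genes listed, 14 were measured, 7 with a lower and 7 with a higher mean in *Sucnr1*-/- fat, none under an unadjusted p of 0.05, with a median difference of 0.00 to 2 decimals. Their mean level lay between 4.70 and 4.90 in all 8 mice, near the low end of the array's scale, and WT mouse 1 was the highest for none of them. *Ifnb1*, which encodes interferon-β, read 4.10, 4.01, 4.14 and 3.92 in WT and 4.20, 4.24, 4.21 and 4.11 in *Sucnr1*-/- mice (difference 0.15 ± 0.07), so WT mouse 1 was not set apart. *Ifnk*, which encodes interferon-κ, differed by 0.20 ± 0.09. *Ifng*, which encodes interferon-γ, read 5.40, 5.25, 5.74 and 5.03 in WT and 5.39, 5.08, 5.26 and 5.16 in *Sucnr1*-/- mice and differed by −0.14 ± 0.15. The highest *Ifng* level was that of WT mouse 3.

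Of the 6 receptor genes, 4 had a lower mean and none was under the unadjusted limit (median −0.05). The 2 with the smallest p were *Ifngr2* (−0.15 ± 0.10) and *Ifnar2* (−0.05 ± 0.06), which encode chains of the interferon-γ and the type I receptor. From the list of 13, 11 JAK, STAT and IRF genes were measured, 8 of them with a lower mean, 1 of these under the unadjusted limit (median −0.08). This was *Irf5*, a factor of macrophage activation, at 9.54, 8.98, 9.42 and 8.87 in WT and 8.94, 8.83, 8.83 and 8.79 in *Sucnr1*-/- mice (−0.36 ± 0.15). The genotypes overlapped only through *Sucnr1*-/- mouse 1, and the highest WT values were those of mice 1 and 3. WT mouse 1 had the highest level of 9 of these 11 genes, among them *Jak1*, which read 11.52, 11.36, 11.22 and 11.34 in WT and 11.36, 11.03, 11.19 and 11.08 in *Sucnr1*-/- mice.

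Of 11 inhibitors of the pathway, 8 had a lower mean, and 1 gene was higher at an unadjusted p of 0.05, *Pias4*, a SUMO ligase that restrains STAT proteins (0.14 ± 0.06), where all *Sucnr1*-/- mice lay above all WT mice. *Socs1*, which encodes an inhibitor of JAK kinases and is itself induced by interferon, read 7.96, 7.13, 6.69 and 6.66 in WT and 7.26, 6.95, 6.63 and 6.29 in *Sucnr1*-/- mice. As in the members, WT mouse 1 was the highest and *Sucnr1*-/- mouse 4 the lowest. In the list of genes that sense nucleic acids upstream of interferon, 21 of 24 were measured and 18 had a lower mean (median −0.15), 3 of them under the unadjusted limit: *Adar*, an RNA-editing enzyme (−0.39 ± 0.17), *Ikbke*, a kinase that activates IRF3 and IRF7 (−0.35 ± 0.14), and *Tlr8*, an endosomal RNA receptor (−0.50 ± 0.21). *Adar* read 8.93, 8.29, 8.20 and 8.19 in WT and 8.12, 7.89, 8.17 and 7.88 in *Sucnr1*-/- mice, with all *Sucnr1*-/- mice below all WT mice. Over the whole array 3.36% of genes were lower at the unadjusted limit, and 1.87% lacked overlap in that direction.

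A second list of 91 interferon-stimulated genes outside the members had the same mice at its ends. Of its 67 measured genes, 60 had a lower mean in *Sucnr1*-/- fat, with a median difference of −0.26, and 8 were lower at an unadjusted p of 0.05: *Phf11a* (−0.89), *Phf11d* (−0.67), *Epsti1* (−0.53), *Ifi30* (−0.45), *Ifitm6* (−0.41), *Tor3a* (−0.40), *Ddx60* (−0.35) and *Lgals3bp* (−0.33). None passed the adjusted limit, and over the whole array 3.36% of genes were lower at the unadjusted limit. Without WT mouse 1, 48 of the 67 had a lower mean (median −0.09), and without both outlying mice 37 (median −0.01). The number lower at the unadjusted limit was 3 without WT mouse 1 (2.75% of all genes) and 1 without both mice (2.47%). WT mouse 1 was the highest for 50 and *Sucnr1*-/- mouse 4 the lowest for 41. Of 13 MHC class I genes and genes of peptide loading outside the members, 11 had a lower mean (median −0.08), and the 2 under the unadjusted limit were *H2-K1* (−0.21 ± 0.08), a classical class I heavy chain, and *Calr* (−0.21 ± 0.08), a chaperone of the loading complex. In 3 of the 13 genes, these 2 among them, all *Sucnr1*-/- mice lay below all WT mice (1.87% of all genes).

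A pair of chemokine genes was singled out after their values were seen. *Cxcl10*, which is induced by type I interferon and interferon-γ, read 12.00, 9.04, 9.18 and 9.97 in WT and 11.10, 10.00, 9.48 and 7.36 in *Sucnr1*-/- mice. *Cxcl9*, which responds mainly to interferon-γ, read 11.21, 11.42, 11.85 and 11.25 in WT and 11.68, 11.94, 11.35 and 11.13 in *Sucnr1*-/- mice. WT mouse 1 was the highest of the 8 mice in *Cxcl10* and the lowest of its group in *Cxcl9*, and *Sucnr1*-/- mouse 4 was the lowest in both. The differences between genotypes were −0.56 ± 0.87 and 0.09 ± 0.20.

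Markers of several immune cell types also differed between mice, and their part in the values above was not tested. For macrophages, 20 of 22 measured markers had a lower mean in *Sucnr1*-/- fat (median −0.27). At an unadjusted p of 0.05 in limma, 4 were lower and 1 higher, and 3.36% of all genes were lower. The mean marker level was 9.86 to 10.16 in WT and 9.52 to 9.92 in *Sucnr1*-/- mice. It was highest in WT mouse 3 (10.16), closely followed by WT mouse 1 (10.12). *Adgre1*, which encodes the macrophage antigen F4/80, read 10.30, 10.10, 10.70 and 10.07 in WT and 9.87, 9.59, 9.76 and 9.94 in *Sucnr1*-/- mice, with no overlap of the genotypes. The 1 marker that was higher was *Mertk*, a receptor for the uptake of dying cells, at 9.44, 9.66, 9.93 and 9.94 in WT and 10.01, 10.29, 10.28 and 10.15 in *Sucnr1*-/- mice, with all *Sucnr1*-/- mice above all WT mice. For B cells, all 13 measured markers had a lower mean (median −0.70, 3 under the unadjusted limit), and the mean level was 8.13 in WT mouse 1, 6.52 to 7.26 in the other WT mice and 6.11 to 6.91 in the *Sucnr1*-/- mice. For monocytes, 10 of 10 had a lower mean (median −0.27, 2 under the unadjusted limit). Their mean level was 8.49 in WT mouse 1, 7.76 to 8.13 in the other WT mice and 7.29 to 8.22 in the *Sucnr1*-/- mice. The lists are not fully separate. The macrophage marker *Fcgr1* and the monocyte marker *Plac8* also stand in the second list of interferon-stimulated genes, and the monocyte marker *Nr4a1* is also an immediate early gene. Among the dendritic cell markers given below, *Tlr9* also stands in the list of nucleic acid sensing. *Irf8* and *Irf4* also stand in that of JAK, STAT and IRF genes.

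Of 12 measured markers of plasmacytoid dendritic cells, the cell type known for the strongest release of type I interferon, 9 had a lower mean (median −0.04). Their mean level was 7.25 in WT mouse 1, 6.67 to 6.88 in the other WT mice and 6.62 to 6.85 in the *Sucnr1*-/- mice. WT mouse 1 had the highest level of the 8 mice for 6 of the 12 markers, with *Ly6d* and *Spib* at 1.99 and 1.35 log2 units above the mean of the other WT mice. *Siglech*, a defining marker of that cell type, went the other way. It read 5.89, 6.07, 6.44 and 6.30 in WT and 6.16, 6.33, 6.59 and 6.35 in *Sucnr1*-/- mice and was lowest in WT mouse 1. The markers *Cox6a2* and *Tcf4* also lay lower in WT mouse 1 than the mean of the other WT mice, by −0.24 and −0.08. All 12 measured T cell markers had a lower mean in *Sucnr1*-/- fat (median −0.34), with 0 under the unadjusted limit. A lower mean was also found for 10 of 13 natural killer cell markers (median −0.21, 1 of them under the unadjusted limit). For conventional dendritic cells it was found for 10 of 14 markers (median −0.11, 1 of them under the unadjusted limit). Of 13 neutrophil markers, 5 had a lower and 8 a higher mean. Neutrophil markers were highest in *Sucnr1*-/- mouse 1 (7.58) and next in WT mouse 1 (7.09), with the other mice between 5.79 and 6.37. Immediate early genes, which rise within minutes of cell stress or stimulation, had their highest mean level in WT mouse 1 (9.25), followed by *Sucnr1*-/- mouse 1 (9.02), and their lowest in *Sucnr1*-/- mouse 4 (8.10). Of 17 measured, 14 had a lower mean in *Sucnr1*-/- fat (median −0.24), with 1 lower and 1 higher at the unadjusted limit. The lower was *Nr4a1* (−0.74 ± 0.25). The higher was *Jun* (0.28 ± 0.08), where all *Sucnr1*-/- mice lay above all WT mice. Adipocyte markers were lowest in WT mouse 1 (12.08, with the other mice at 12.29 to 12.38). For *Sucnr1*-/- mouse 4, the mean marker level of macrophages (9.73), monocytes (7.52), plasmacytoid dendritic cells (6.72), B cells (6.75) and T cells (6.16) lay within the range of the other *Sucnr1*-/- mice. It was the lowest of its group for neutrophils (5.80, others 5.86 to 7.58), conventional dendritic cells (8.10, others 8.11 to 8.16) and natural killer cells (5.41, others 5.44 to 5.90).

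**Figure D4:**
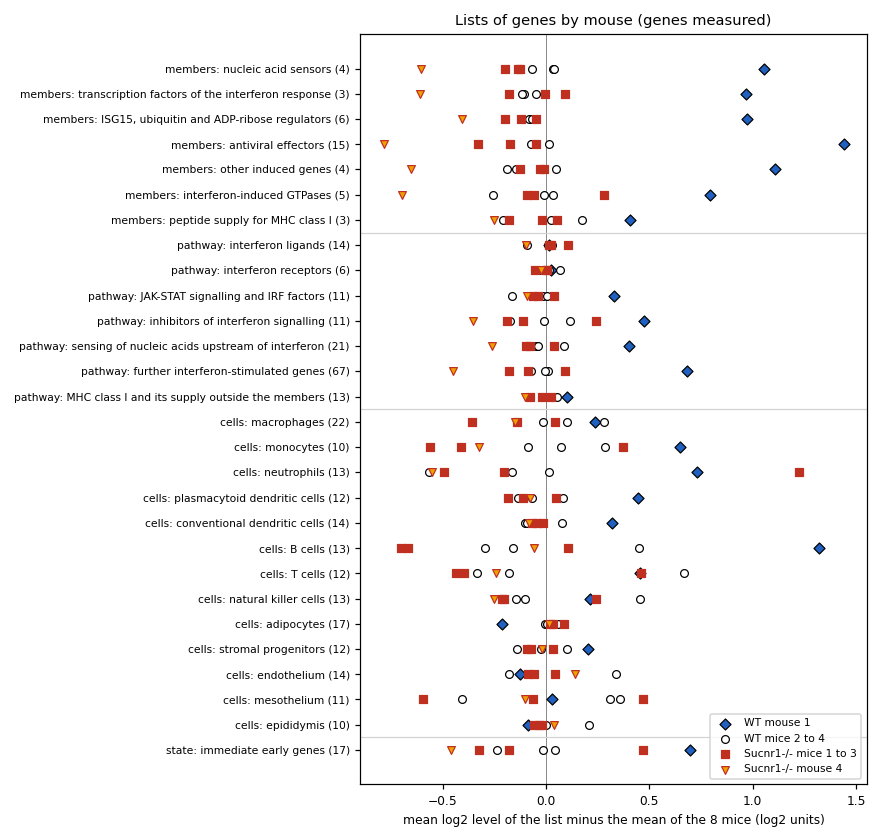
Mean log2 level of each list of genes in each mouse minus the mean of the 8 mice (x axis, log2 units), for the functional groups of the members, the rest of the interferon pathway, markers of cell types and immediate early genes; the number of genes measured stands in brackets and the symbols are those of the other plots. WT mouse 1 and *Sucnr1*-/- mouse 4 lie at the ends of the range in every group of members, ligand and receptor genes stay near 0 in all mice, and B cell markers are high in WT mouse 1 while *Sucnr1*-/- mouse 4 lies between the other *Sucnr1*-/- mice.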

How the data were processed

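RNA from the epididymal fat of 4 WT and 4 *Sucnr1*-/- mice was hybridised to Affymetrix Mouse Gene 1.1 ST arrays, 1 array per mouse. The labels number the arrays of each genotype as replicates 1 to 4, and the paper gives 4 animals per genotype. The authors deposited log2 expression values per probe set, which the submitters' processing notes credit to RMA (background correction, quantile normalisation and probe summary), with neither version nor genome build stated. Of 35556 probe sets, 21218 carried 1 gene symbol in the platform annotation, 1881 carried several and 12457 none. Of those with 1 symbol, 21185 matched a RefSeq gene by Entrez identifier. For each of 18820 genes the probe set with the brightest mean over the 8 arrays was used. A linear model with moderated variances (limma 3.58.1 under R 4.3.3) compared the genotypes as *Sucnr1*-/- minus WT, 2-sided, and p-values were adjusted by the Benjamini-Hochberg method across the 18820 genes, with thresholds of 0.05. No depth exists for arrays, and their number limits the precision. The procedure was tested on simulated data. The members and all lists were chosen with earlier results of these data known. Values in every mouse are given for members under an unadjusted p of 0.05, those without overlap, the 4 largest differences and at least the 2 smallest p of each functional group, and *Isg15*, *Isg20*, *Ifit1*, *Mx2* and *Zbp1* were added after their values were seen. In the pathway lists genes under an unadjusted p of 0.05, or else the 2 with the smallest p, are named, and others, with the macrophage marker *Mertk*, were added likewise. Promoters came from RefSeq (GRCm38.p6) and were searched on both strands with Python 3.11.15. Alternatives covered the prior variance, array weights, centring, quantile normalisation, the choice of probe set, a filter on the 40% dimmest genes, Student's t-test, a replicate block and leaving out mice. Of these, leaving out WT mouse 1 with *Sucnr1*-/- mouse 4 was chosen after seeing the data.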

Additional observations from a re-analysis of the deposited data

Results flagged for a closer look

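Among the 80 groups of 4 mice examined (40 members in each genotype), 15 held a mouse whose gap to its nearest neighbour exceeded Dixon's critical value for 4 samples as a share of the group's whole range. About 1 in 20 groups would do so by chance, and the members are not independent of each other.

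In 13 of the 15 the mouse was WT mouse 1, each time above the other WT mice. Its gap took 0.989 of the WT range in *Ddx58*, 0.862 in *Ifih1* and 0.924 in *Zbp1*, all sensors. In the transcription factors it took 0.85 (*Irf7*), 0.858 (*Irf9*) and 0.843 (*Stat2*). The share was 0.918 in *Usp18*, 0.869 in *Parp12* and 0.939 in *Parp14*. In the antiviral effectors *Oas1a* and *Rsad2* it was 0.898 and 0.968, and in the other induced genes *Xaf1* and *Trim30a* it was 0.893 and 0.868. No GTPase and no gene of peptide supply was among them.

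In the *Sucnr1*-/- mice, mouse 4 lay apart below the others in *Oas2* (0.879), and mouse 1 lay apart below the others in *Ifit2* (0.83). The part of RNA quality, cell content or the animals' state in these values was not tested.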

How the results depend on the processing

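The member differences could not be altered by other priors, Student's t-test, the replicate block, the mean of probe sets or the filter on dim genes, which removed *Isg15* and *Mx2*. Under the 14 alternatives that moved a member's difference, 540 of 560 member values kept their direction and 20, in 12 members, reversed. No direction reversed after median centring, quantile normalisation, array weights or the use of probe sets with several symbols. Array weights brought the median from −0.417 to −0.228, with *Gbp7* at −0.010, *Gbp3* at −0.047 and *Xaf1* at −0.048. The median difference ran from −0.540 without WT mouse 4 to −0.058 without WT mouse 1 and *Sucnr1*-/- mouse 4. No gene of the array passed an adjusted p of 0.05 under any alternative, and the lowest adjusted p of a member was 0.304.

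The number of members lower at an unadjusted p of 0.05, 4 over all mice, was 0 by Student's t-test, 2 without WT mouse 1 and *Sucnr1*-/- mouse 4, and 0 to 11 when each mouse was left out in turn (7 without WT mouse 2, 11 without WT mouse 4, 2 without *Sucnr1*-/- mouse 3 and 0 without *Sucnr1*-/- mouse 4, beside 3.73%, 3.81%, 2.52% and 2.35% of all genes). The number without overlap, 4 over all mice, was 4 to 9 when each mouse was left out (9 without WT mouse 4, where 3.48% of all genes did not overlap in that direction, and 8 without *Sucnr1*-/- mouse 2, where 2.62% did not). With the replicate number as a block 13 members were lower at the unadjusted limit, as were 1096 of all genes (5.82%, against 632 without the block). Same-numbered mice correlated at 0.454, 0.141, 0.106 and 0.015 in their deviations from the group means, and not every mouse correlated best with its own number. With so few mice these values cannot decide whether the numbers mark pairs. The labels state no pairing, and the main comparison was unpaired.

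Leaving out 1 mouse in turn gave ranges that crossed 0 for *Irf9* (−0.350 to 0.018), *Stat2* (−0.445 to 0.035), *Xaf1* (−0.396 to 0.024) and *Gbp7* (−0.218 to 0.023). In each the value without WT mouse 1 was positive, at 0.018, 0.035, 0.024 and 0.011, and for *Gbp7* the value of 0.023 came without *Sucnr1*-/- mouse 4. Without WT mouse 1 and *Sucnr1*-/- mouse 1, *Xaf1*, *Gbp3* and *Gbp7* were at 0.052, 0.078 and 0.005. Without WT mouse 1 and *Sucnr1*-/- mouse 4, 12 members were above 0: *Irf9* 0.183, *Stat2* 0.184, *Herc6* 0.095, *Ifit1* 0.291, *Mx2* 0.170, *Rtp4* 0.004, *Xaf1* 0.176, *Gbp3* 0.072, *Gbp7* 0.126, *Iigp1* 0.224, *Irgm1* 0.174 and *Psmb9* 0.040. These alternatives compare fewer mice, and the cause of the changes was not tested.

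The 4 mice per genotype limit the precision, each member rests on 1 probe set, and whole tissue does not separate cell number from RNA per cell.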
